A study of Mus musculus with 5 samples.

Results

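The TNF ligand and receptor superfamily was examined among the PU.1 binding sites of a mouse acute myeloid leukaemia. The genes were Tnf, Lta, Ltb, Ltbr, Fas, Fasl and the protein-coding genes whose symbols start with Tnfsf or Tnfrsf, which gave 37 genes, 22 for receptors and 15 for ligands, of the 21631 protein-coding genes that lie on the autosomes and chromosome X. All samples were AML-246 cells, a p53-/- leukaemia that carries a GFP-linked short hairpin RNA against PU.1, taken from the spleens of leukaemic C57BL/6 recipient mice. In the PU.1 high group (3 libraries) the mice had received doxycycline for 2 days, which shuts the hairpin off and restores endogenous PU.1. In the PU.1 low group (2 libraries) the mice were untreated. Per the labels, libraries within a group are technical replicates, and whether they came from different mice is not stated, and the ages of the mice were not given.

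The data are 1 list of binding site summits, called with PU.1 high set against PU.1 low, from chromatin immunoprecipitation with the antibody T-21. The list holds no value for any single library, so depth and the spread between libraries are unknown, and no statement below rests on a test between treated and untreated mice. From the name of the list, a site is read as a place with more PU.1 signal after restoration. Each of the 11106 sites on these chromosomes has the authors' score on a −log10 scale (median 8.56, quartiles 5.78 and 11.9), which says how surely a site stands out and not how much binding changed. Sites were assigned to genes by distance to the nearer of the gene's ends, on mm10. The genes of this family had been singled out with results of these data known, so their counts stand beside those of all genes as a description, with no test.

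Ligands of the TNF superfamily are mostly membrane-anchored trimers, some of which are also shed, and their receptors carry cysteine-rich repeats outside the cell. Receptors with a death domain can start apoptosis or necroptosis, and others bind TRAF adaptors and switch on NF-kB and MAP kinases. In the myeloid lineage TNF is a main product of activated monocytes and macrophages, BAFF and APRIL from myeloid cells keep B cells alive, and RANK directs the formation of osteoclasts from myeloid precursors. PU.1 belongs to the ETS factors, which bind DNA around a GGAA core, and the myeloid and B lineages depend on it.

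Within 10 kb of a gene end, 14 of the 37 family genes (37.8%) had at least 1 site, against 22.4% of all protein-coding genes. Within 50 kb the family count was 28 of 37 (75.7%), against 49.5% of all protein-coding genes. Next to the gene ends, 2 of 37 family genes (5.41%) had a site within 1 kb, against 6.41% of all genes. With sites anywhere in a gene or within 10 kb of it counted, 15 family genes had one, against 27.8% of all genes, and with 50 kb it was 28, against 50.3%. Receptors had a site within 10 kb in 7 of 22 cases (31.8%, 95% Wilson interval 16.4 to 52.7) and ligands in 7 of 15 (46.7%, 24.8 to 69.9). Within 50 kb it was 16 of 22 receptors (72.7%) and 12 of 15 ligands (80.0%). The intervals overlap and cover counting error only. They treat genes as independent, although neighbouring genes share sites, and the difference between the classes was not tested. Its direction depends on which genes are counted, since with family genes under other symbols added receptors had the slightly higher share, 39.3% against 38.9% for ligands.

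**Figure D1:**
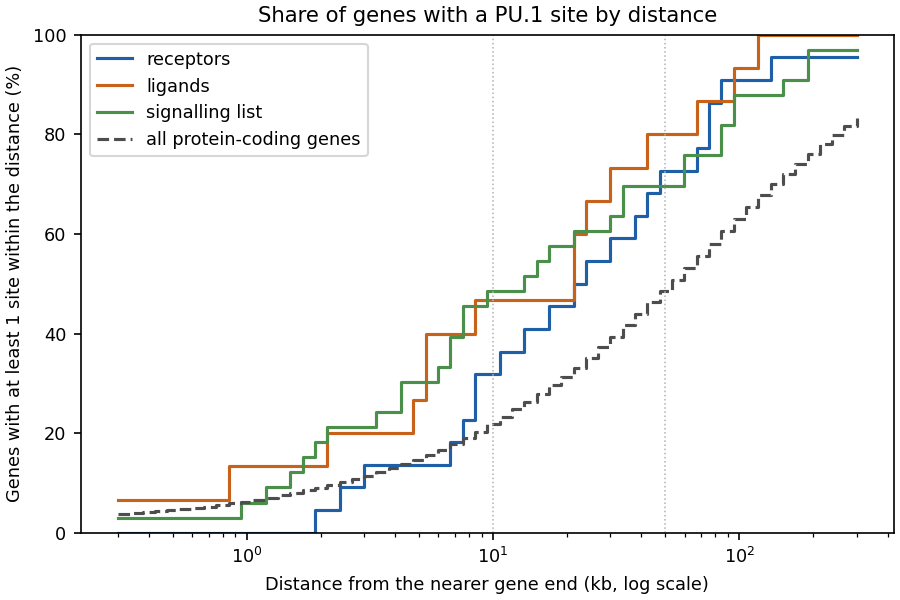
Share of genes with at least 1 PU.1 site (y axis, percent) within a given distance of the nearer gene end (x axis, kb, log scale), for 22 receptor genes, 15 ligand genes, 33 signalling genes and 21631 protein-coding genes. At 10 kb the curves stand at 31.8% for receptors and 46.7% for ligands, above 22.4% for all genes. Below about 1 kb the receptor curve is at 0.

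The median distance to the nearest site was 21.8 kb for receptors, 19.8 kb for ligands and 51.1 kb for all protein-coding genes. Receptor genes had a median length of 18.6 kb and ligand genes of 10.6 kb, against 17.3 kb for all genes, and a longer gene has a wider window at its ends. Counted per length of merged window, receptors had 0.977 sites per 100 kb within 10 kb of their ends and ligands 1.55, against 0.826 around all genes. Within 50 kb the order was the other way, with 1.28 sites per 100 kb for receptors and 1.11 for ligands, against 0.656 for all genes.

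Among the receptor and ligand genes counted above under the main symbols, the closest sites to a gene end lay at 2 ligand genes. These were Tnfsf15, at 0.26 kb with a low score of 3.12, and Tnf, at 0.788 kb. Family genes under other symbols change this order. The receptor gene Relt had a closer site, at 0.131 kb, and the receptor gene Cd40 had one at 0.935 kb. Distances to annotated starts of transcription could be taken for 18 receptors and 13 ligands, for which the RefSeq promoter table gives a start and a strand. Of these, 0 receptors and 2 ligands (15.4%) had a site within 1 kb of a start, against 6.03% of all genes with a start. The 2 were Tnfsf15 and Tnf. Tnfrsf17 was the only other gene of these 18 receptors and 13 ligands with a site within 2 kb of its start.

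The 250 bases before the start are shown for these 3 genes, since their starts lay nearest to a site. The sequences are from RefSeq (GRCm38.p6), 5′ to 3′ on the strand of the gene, and capitals mark each GGAA or its reverse complement TTCC, the core letters of ETS factor motifs.
Tnfrsf17 (chr16:11313559-11313808, plus strand): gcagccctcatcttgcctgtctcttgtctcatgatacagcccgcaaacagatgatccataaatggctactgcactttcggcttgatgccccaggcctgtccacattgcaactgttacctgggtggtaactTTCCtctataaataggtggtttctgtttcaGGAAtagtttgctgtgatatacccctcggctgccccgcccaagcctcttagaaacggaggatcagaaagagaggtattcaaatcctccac
Tnfsf15 (chr4:63745060-63745309, minus strand): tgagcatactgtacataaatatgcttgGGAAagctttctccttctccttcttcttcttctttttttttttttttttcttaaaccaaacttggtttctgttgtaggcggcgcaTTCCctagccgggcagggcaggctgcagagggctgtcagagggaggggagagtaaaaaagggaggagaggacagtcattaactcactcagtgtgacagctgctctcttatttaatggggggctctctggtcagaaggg
Tnf (chr17:35202008-35202257, minus strand): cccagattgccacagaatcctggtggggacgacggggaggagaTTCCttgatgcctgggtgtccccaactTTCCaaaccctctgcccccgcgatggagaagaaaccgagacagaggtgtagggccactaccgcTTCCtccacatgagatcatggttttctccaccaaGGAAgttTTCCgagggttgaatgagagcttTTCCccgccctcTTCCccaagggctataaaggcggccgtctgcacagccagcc

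In Tnfsf15 the summit lay 260 bases before the start, just upstream of the first base shown. The gene (chromosome 4, 63724600 to 63745059) encodes the ligand TL1A of the death receptor Tnfrsf25. Its site at 63745319 scored 3.12, below the lower quartile of all sites. In Tnf the summit lay inside the gene, 788 bases downstream of the start, and scored 12.7. In Tnfrsf17 the summit at 11315381 lay inside the gene, 1.57 kb downstream of the start, and scored 5.64. None of the 3 summits falls within the bases shown, so these letters are context for the starts and not the bound sequence.

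Both printed ligand promoters and the receptor promoter hold the GGAA core, with 7 copies in Tnf and 2 each in Tnfsf15 and Tnfrsf17. The core is common: on either strand, all 18 receptor and all 13 ligand genes with a promoter had it in these 250 bases, as did 94.0% of 17274 protein-coding genes. The longer form GAGGAA was in 8 of 18 receptor genes (44.4%) and 4 of 13 ligand genes (30.8%), against 25.2% of all genes. AGGAAG was in 5 of 18 receptor genes (27.8%) and 9 of 13 ligand genes (69.2%), against 31.9% of all genes. The ligand genes with AGGAAG were Fasl, Ltb, Tnf, Tnfsf8, Tnfsf10, Tnfsf11, Tnfsf13b, Tnfsf14 and Tnfsf18. AGGAAG and GAGGAA overlap where their letters run together, as in the Ltb promoter. Of these 9 genes, Tnfsf10, Tnfsf11 and Tnfsf14 had 0 sites within 50 kb. Fasl, Ltb, Tnf, Tnfsf8, Tnfsf13b and Tnfsf18 each had a site in that window. So did Lta, Tnfsf13, Tnfsf15 and Tnfsfm13, the ligand genes whose listed promoter lacked AGGAAG. Among all 21631 protein-coding genes, 10914 had none within 50 kb.

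**Figure D2:**
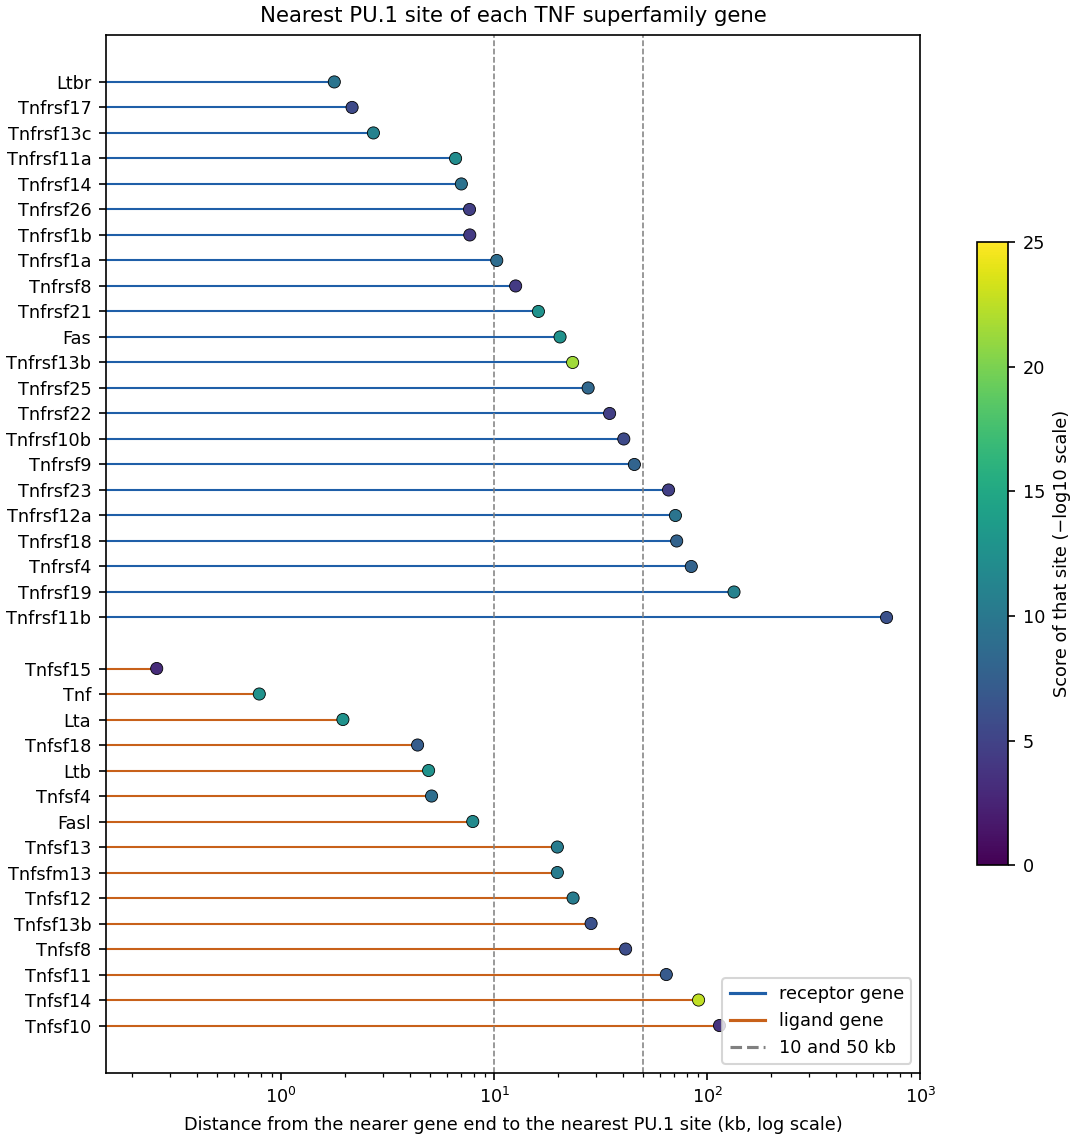
Distance from the nearer gene end to the nearest PU.1 site (x axis, kb, log scale) for the 22 receptor genes above and the 15 ligand genes below. The colour of a point is the score of that site and the dashed lines mark 10 and 50 kb. The nearest sites run from 1.77 kb (Ltbr) to 694 kb (Tnfrsf11b) among receptors and from 0.260 kb (Tnfsf15) to 114 kb (Tnfsf10) among ligands.

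Among the receptors with a site within 10 kb, Tnfrsf11a had the highest-scoring one. Tnfrsf11a (chromosome 1, 105780673 to 105849444) encodes RANK, the receptor of osteoclast precursors. Its site at 105787251 lay inside the gene, 6.53 kb downstream of the start, and scored 12.0, above the upper quartile of all sites. A lower-scoring site (7.41) lay 33.3 kb below the lower end, nearer to Relch. The genes of the RANK ligand and of its decoy receptor had no site within 50 kb. The nearest site to Tnfsf11, which encodes the ligand RANKL, was 64.2 kb away (score 6.98), and that to Tnfrsf11b, the secreted decoy osteoprotegerin, was 694 kb away (score 6.21).

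Of the receptors of B cell survival factors, Tnfrsf13c and Tnfrsf17 had a site within 10 kb and Tnfrsf13b had none. Tnfrsf13c (chromosome 15, 82221742 to 82224380), the BAFF receptor gene, had a site of score 11.0 at 2.71 kb below its lower end, which is past the 3′ end of this minus-strand gene. Further sites of score 18.1 and 4.99 lay 25.1 and 34.5 kb below the same end, both nearer to Srebf2. Tnfrsf17 (chromosome 16, 11313232 to 11320074), the gene of BCMA on plasma cells, had the site described above and no other within 50 kb. Tnfrsf13b, the gene of the receptor TACI, had no site within 10 kb. A site of score 21.5 lay 23.3 kb beyond its upper end, the highest score within 50 kb of any family gene, but 1.42 kb from an end of Usp22. One of score 4.63 lay 40.4 kb away.

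The ligands of these receptors, Tnfsf13b (BAFF) and Tnfsf13 (APRIL), had 0 sites within 10 kb. The nearest site to Tnfsf13b scored 6.22 at 28.5 kb and stood 50 bases from an end of Abhd13. A site of score 10.4 lay 19.8 kb from Tnfsf13 and from Tnfsfm13, the annotated fusion of Tnfsf12 and Tnfsf13, and 23.4 kb from Tnfsf12, the gene of TWEAK. This site stood 0.162 kb from an end of Mpdu1, and Tnfsfm13 shares an end with each of the other two. Tnfrsf12a, the receptor of TWEAK, had its nearest site 70.8 kb away (score 9.59).

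A block of receptor genes on chromosome 6 had sites along its length. Ltbr (125306571 to 125313885), the lymphotoxin beta receptor gene, had a site of score 9.59 at 125308344, inside the gene and 5.54 kb downstream of its start. Sites of score 8.64 and 8.85, at 125339001 and 125339456, lay between Ltbr and Tnfrsf1a (125349723 to 125362483), which encodes the TNF receptor with a death domain. They stood 10.7 and 10.3 kb upstream of the Tnfrsf1a start, so Tnfrsf1a fell just outside the 10 kb window. Both were nearer to Scnn1a, 5.94 and 5.49 kb from its end. On the other side, sites of score 11.9 and 6.98 lay 26.6 and 42.0 kb below Ltbr, nearer to Tuba3a. Cd27, a T and B cell receptor gene of the same family and block, had a site of score 12.3 at 3.74 kb and 6 sites within 50 kb, some of them the same as those of Ltbr.

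The other TNF receptor gene, Tnfrsf1b (chromosome 4, 145212368 to 145246870), had a single site within 10 kb. It lay 7.67 kb upstream of the start and scored 4.39, below the lower quartile of all sites. The same summit was the nearest to Tnfrsf8, the CD30 gene, at 12.6 kb, and was closer to Tnfrsf1b. A site of score 2.46 lay 17.4 kb below Tnfrsf1b and 25 bases from an end of Vps13d. Tnfrsf14 (chromosome 4, 154918487 to 154928620), which encodes HVEM, the receptor of LIGHT, had a site of score 9.42 at 7.00 kb and one of 15.3 at 13.9 kb, both past its 3′ end. The higher of them was nearer to Prxl2b.

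Death receptor genes had sites in the outer window. Fas (chromosome 19, 34290647 to 34327775), the receptor gene of extrinsic apoptosis, had a site of score 12.6 at 20.4 kb upstream of its start and one of 1.97 at 41.8 kb, both nearer to Acta2. Tnfrsf21 (chromosome 17, 43016555 to 43089188), which encodes DR6, had one within the gene body that scored 12.7, 16.1 kb downstream of its start. Its other sites within 50 kb, of score 4.35 at 20.3 kb, 5.78 at 48.8 kb and 11.1 at 49.4 kb, lay outside it, and Tnfrsf21 was the nearest gene to all 4. Tnfrsf25, the TL1A receptor gene, had sites of score 8.31, 6.57 and 12.1 at 27.6, 37.0 and 45.1 kb, nearer to Plekhg5 or Hes2. Tnfrsf10b, the TRAIL receptor gene, had one of score 5.59 at 40.5 kb, and 0.102 kb from an end of Rhobtb2.

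Tnfrsf22 and Tnfrsf23, the mouse decoy receptor genes for TRAIL, had 0 sites within 10 kb. Tnfrsf26, which lies beside them on chromosome 7, had a site of score 4.62 at 7.65 kb, but this summit stood 54 bases from an end of Cars. It was also the nearest site to Tnfrsf22 (34.8 kb) and Tnfrsf23 (65.8 kb). Tnfrsf26 had another of score 9.71 at 33.9 kb, and Tnfsf10, the gene of TRAIL, had its nearest site 114 kb away (score 3.71).

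Of the receptors of T cell co-stimulation, Tnfrsf9, Tnfrsf18 and Tnfrsf4 had 0 sites within 10 kb. Tnfrsf9, the 4-1BB gene, had its nearest site at 45.4 kb (score 7.9997), nearer to Errfi1. For Tnfrsf18 and Tnfrsf4, which encode GITR and OX40 and lie side by side on chromosome 4, one summit of score 7.90 was nearest, at 71.8 and 84.1 kb. Tnfrsf19, the gene of the receptor TROY, had its nearest site 133 kb away (score 11.0). The ligand genes Tnfsf18 and Tnfsf4, which encode the ligands of GITR and OX40, had sites within 10 kb. Other pairs went the opposite way. The receptor gene Tnfrsf14 had a site at 7.00 kb and its ligand gene Tnfsf14 had 0 within 50 kb. Cd27 had one at 3.74 kb, and the nearest to its ligand gene Cd70 was at 49.7 kb. Of the 21 pairs listed below, the ligand alone had a site within 10 kb in 6 and the receptor alone in 6.

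Tnfsf4, Tnfsf18 and Fasl lie in this order on chromosome 1. Tnfsf4 (161395438 to 161418206) had 1 site of score 8.98, 5.08 kb below its lower end. Tnfsf18 (161494657 to 161505290) had a summit of score 7.29 within it, 6.27 kb downstream of the start, and one of 16.2 at 12.3 kb beyond its 3′ end. Fasl (161780691 to 161788495), the ligand gene of Fas, had sites of score 11.8 and 15.0 at 7.92 and 10.6 kb upstream of its start. All 5 summits had one of these ligand genes as the nearest gene. For both Tnfsf18 and Fasl the higher-scoring of their 2 sites lay beyond the 10 kb window.

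The lymphotoxin and Tnf genes on chromosome 17 shared their sites. Tnf (35199367 to 35202007), the gene of the inflammatory cytokine TNF, had the summit at 35201219 inside it. The same summit lay 1.95 kb below Lta (35203165 to 35205578), past the 3′ end of that gene, and 4.91 kb beyond the upper end of Ltb (35194507 to 35196305), so that 1 site put 3 ligands inside the 10 kb window. Lta and Ltb encode the subunits of lymphotoxin. A further site of score 9.10 at 35189396 lay 5.11 kb upstream of the Ltb start and 9.97 kb from Tnf, just inside the window, and stood 0.956 kb from an end of Lst1. Beyond these, sites of score 11.1 and 4.23 near Aif1 and of 10.8 near Prrc2a completed a group of 5 sites, all at lower coordinates than the start of Tnf. No site was listed within 50 kb on the other side of Lta.

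**Figure D3:**
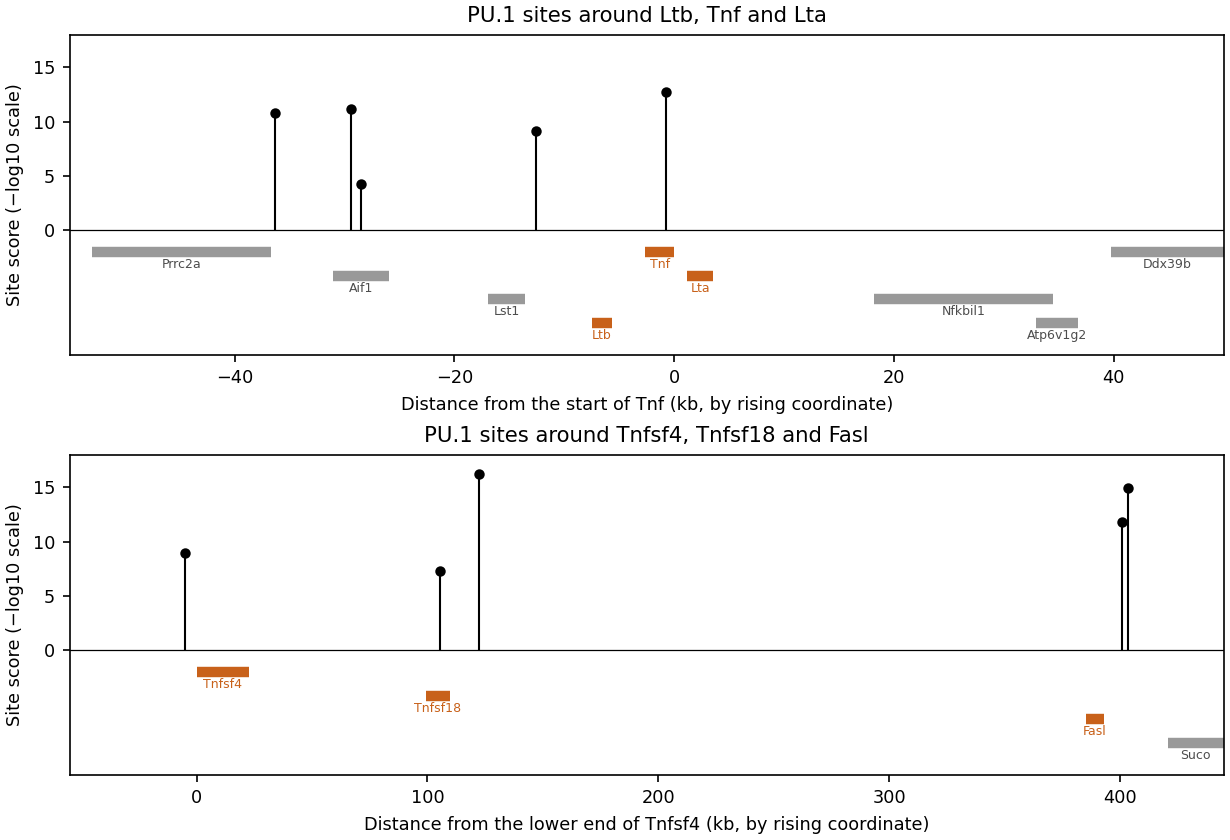
PU.1 sites (vertical lines, height is the score on a −log10 scale) around Ltb, Tnf and Lta (top, kb from the start of Tnf) and around Tnfsf4, Tnfsf18 and Fasl (bottom, kb from the lower end of Tnfsf4). Bars below the axis are protein-coding genes, with family members in orange and other genes in grey. The top locus has 5 sites with scores from 4.23 to 12.7, and the bottom locus has 5 with scores from 7.29 to 16.2.

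The remaining ligands had distant sites or none in the window. Tnfsf8, the CD30 ligand gene, had 1 site of score 5.78 at 41.3 kb, and Tnfsf8 was its nearest gene. Tnfsf14, which encodes LIGHT, had its nearest site 91.0 kb away, with a score of 22.6. In all, 6 of 22 receptors (Tnfrsf4, Tnfrsf11b, Tnfrsf12a, Tnfrsf18, Tnfrsf19 and Tnfrsf23) and 3 of 15 ligands (Tnfsf10, Tnfsf11 and Tnfsf14) had 0 sites within 50 kb. Of all 21631 protein-coding genes, 10914 had none within 50 kb.

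Scores near the family were close to those of the whole list. Of the 44 different summits within 50 kb of a family gene, 17 scored at least 10 (38.6%), against 37.4% of all sites. Their scores ran from 1.97 to 21.5 with a median of 8.91, against 8.56 for all sites. The 30 summits around receptors had a median of 8.47 and the 14 around ligands one of 9.75, and a score of at least 10 was reached by 10 of the 30 around receptors and 7 of the 14 around ligands. With only such sites counted, 2 of 22 receptors (9.09%) and 4 of 15 ligands (26.7%) had one within 10 kb, against 9.08% of all genes. Within 50 kb it was 8 of 22 receptors (36.4%) and 8 of 15 ligands (53.3%), against 26.2% of all genes. These 8 ligands are not separate cases. Tnf, Lta and Ltb have the same sites, and Tnfsf12, Tnfsf13 and their fusion Tnfsfm13 share 1 summit of score 10.4 beside Mpdu1. The 8 receptors shared no such site, so the 2 shares are not read as a difference between the classes. Within 10 kb the receptors were Tnfrsf11a and Tnfrsf13c, and the ligands were Fasl and the 3 genes that share the Tnf summit.

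**Figure D4:**
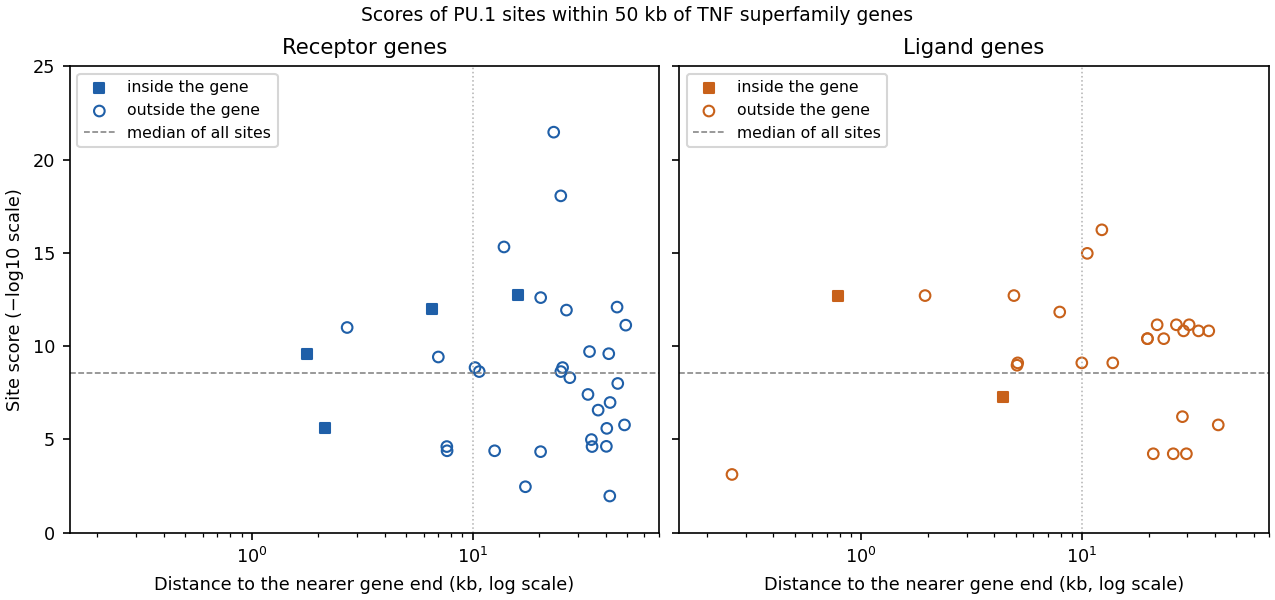
Score of each PU.1 site (y axis, −log10 scale) against its distance to the nearer gene end (x axis, kb, log scale) for receptor genes (left) and ligand genes (right). Each point is 1 pair of gene and site within 50 kb, so a site near several genes appears more than once. The dashed line is the median of all sites, 8.56, and the dotted line marks 10 kb. The highest point, 21.5, is 23.3 kb from Tnfrsf13b.

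Most of these summits lay outside family genes and often nearer to another gene. Of the 44, 6 were inside a family gene (4 in receptors, 2 in ligands) and 38 outside. A family gene was the nearest protein-coding gene for 18 of them, and another gene was nearer for 26. Within 10 kb the balance differed, with 13 summits of which 11 had a family gene as the nearest. The places of sites were not counted in this way around all genes, so these counts are not read as a trait of the family. When a site counted only for the gene with the nearest end, 6 of 22 receptors (27.3%) and 5 of 15 ligands (33.3%) had a site within 10 kb, 11 genes in all, against 16.5% of all protein-coding genes. Under the same rule 13 of 37 family genes had one within 50 kb, against 24.6% of all genes.

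Ligands and receptors that bind each other were also set side by side. Of 21 ligand and receptor pairs listed from known binding, both partners had a site within 10 kb in 3, the receptor alone in 6, the ligand alone in 6 and neither in 6. The 3 pairs were Tnf with Tnfrsf1b, Lta with Tnfrsf1b and Ltb with Ltbr, and all 3 ligands have the summit inside Tnf in reach. Some genes stand in several of the 21 pairs, so the pairs are not separate cases. No such count was made over pairs of other genes. Counted by role, 5 of the 6 TNF and lymphotoxin genes had a site within 10 kb, 2 of the 5 B cell survival genes, 2 of the 9 genes of the death receptor group, 3 of the 9 co-stimulation genes, 1 of the 3 bone genes and 0 of the 2 TWEAK genes, against 22.4% of all protein-coding genes. Within 50 kb the counts in the same order were 6 of 6, 5 of 5, 7 of 9, 6 of 9, 1 of 3 and 1 of 2, against 49.5% of all genes. The groups are too small to be read against the shares of all genes one by one.

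Family members that carry other symbols had a site within 10 kb in 4 of 9 cases (44.4%), against 22.4% of all protein-coding genes, and within 50 kb in 6 of 9 (66.7%), against 49.5%. The 4 were all receptors. Here receptors had a site within 10 kb in 4 of 6 cases and ligands in 0 of 3. With these genes added to their classes, 11 of 28 receptors (39.3%) and 7 of 18 ligands (38.9%) had a site within 10 kb. Relt had 2 sites, with the higher of score 16.6 at 6.57 kb, and a lower of 7.41 at 0.131 kb. Cd40, a receptor of antigen-presenting cells, had 1 of score 10.2 inside the gene and 0.935 kb from an end. Cd27 is given above, and Ngfr, the neurotrophin receptor gene, had 1 of 8.74 at 7.91 kb. Edar, an ectodysplasin receptor gene, had its nearest site at 24.8 kb (score 2.06). Cd70, the ligand gene of Cd27, had one of score 1.85 at 49.7 kb. On chromosome X, Cd40lg, Eda and Eda2r had 0 within 50 kb, and the nearest to Cd40lg was 82.9 kb away (score 20.4).

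Of 33 genes that act below the receptors, 16 (48.5%) had a site within 10 kb, against 22.4% of all protein-coding genes, and 23 (69.7%) had one within 50 kb, against 49.5%. Those within 10 kb were 4 of 9 adaptors (Tradd, Traf1, Traf3 and Traf5), 3 of 6 death effectors (Bid, Casp8 and Mlkl), 5 of 9 genes of ubiquitin signalling (Birc2, Otulin, Rnf31, Tnfaip3 and Tnip1) and 4 of 9 kinase genes (Chuk, Ikbkb, Map3k14 and Tab2). The 33 genes had a median length of 29.0 kb, against 17.3 kb for all genes, and a longer gene has a wider window at its ends. Per length of merged window they had 1.97 sites per 100 kb within 10 kb of their ends, against 0.826 around all genes. Within 50 kb it was 1.40, against 0.656. Within 1 kb of an end, 2 of the 33 genes (6.06%) had a site, against 6.41% of all genes. Whether another gene lay nearer to the sites of this list was not counted. The highest score was at Ikbkb, the gene of an IkB kinase subunit, with 4 sites of which the top scored 25.2 at 1.48 kb from its end. Traf3, an adaptor that restrains the non-canonical NF-kB pathway, had a site of score 17.0 at 6.20 kb. Map3k14, the gene of the kinase NIK that Traf3 keeps low, had 3 sites, the top one scoring 15.9 at 5.36 kb. Chuk, another IkB kinase gene, had 2 sites (highest 14.3 at 5.85 kb). Tnfaip3, the deubiquitinase that ends TNF signalling, and Casp8, the initiator caspase of death receptors, had 1 each inside the gene, with scores of 14.2 and 14.0.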

How the data were processed

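PU.1 ChIP-seq libraries of the 5 samples were reduced by the authors to 1 file of summits. The tools were CASAVA 1.8.2 and MACS2 and the build was mm10, per the submitters' processing notes. The aligner, the settings of MACS2, any read filter and the way libraries were combined were not given in the sources used here. Each score the authors deposited is on a −log10 scale, without saying if it stands for p or for q. Its lowest value, 1.32, lies just above 1.30, the −log10 of 0.05. Depth is unknown.

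From the 11111 summits, 11106 on chromosomes 1 to 19 and X were used, with positions 1-based. Gene ends came from a RefSeq table of GRCm38.p6. Starts and strands came from the promoter table of the same build, which held 31 of the 37 family genes. Distances were computed with Python 3.11.15, pandas 2.3.3 and scipy 1.17.1, and the assignment of sites was checked on simulated sites.

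No count is tested, since the file has no values per library and genes are not replicates. The members, the signalling list, the roles and the pairs were chosen with earlier results of these data known. All family genes are named with their sites, and of the signalling list those with the 6 highest-scoring sites within 10 kb. Members were also counted with other windows, score minimums and assignments. Of the genes with these prefixes, 1 is not reported here. Sequence was read from that promoter table alone, and the bases under summits were not read.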

Additional observations from a re-analysis of the deposited data

How the results depend on the processing

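Of the 37 family genes, the count with a site within 10 kb was 14. It moved to 2 with a window of 1 kb and to 6 with sites of a score of at least 10, and was 15 with the gene span plus 10 kb, 11 with the nearest gene only and 12 of 30 with neighbouring genes counted as 1 locus. The locus count has no counterpart over all genes, so it is not set against their share. The count within 50 kb was 28, moved to 16 at a score of at least 10 and to 13 with the nearest gene only, and stayed at 28 with the gene span plus 50 kb. The signalling count of 16 of 33 moved to 2 (6.06%) at 1 kb and to 10 (30.3%) at a score of at least 10. These settings change what is counted, and the shares of all genes moved too, to 6.41% at 1 kb and 9.08% at a score of at least 10. At 1 kb the family share was 5.41% and the signalling share 6.06%, both below that of all genes. The receptor share minus the ligand share within 10 kb was −14.8 percentage points and −7.27 within 50 kb. With family genes under other symbols included, both reversed, to 0.397 within 10 kb and 2.78 within 50 kb, since 4 of the 6 added receptors and 0 of the 3 added ligands had a site within 10 kb. Without the added genes, the 10 kb difference stayed negative under the other 7 alternatives, from −18.4 with distances to annotated starts to −6.06 with the nearest gene only. The 50 kb window given above is among these 7. Annotated starts cover 31 of the 37 genes, and the loci number 30. The starts, the loci within a class (−8.61) and the added genes were chosen after seeing the data. No paired analysis was possible because the list is common to all libraries, and leaving out single libraries could not be done either.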

Other observations

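Some high-scoring sites had a family gene within 50 kb but stood closer to other genes, and are given here as values chosen after they were seen. The summits of score 21.5 and 18.1 within 50 kb of Tnfrsf13b and Tnfrsf13c lay 1.42 kb from Usp22 and 8.73 kb from Srebf2.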
